A study of Mus musculus with 6 samples.

Results

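The genes described here encode subunits of activator protein 1 (AP-1): the Fos family (Fos, Fosb, Fosl1, Fosl2), the Jun family (Jun, Junb, Jund) and the related basic leucine zipper (bZIP) factors Atf3, Batf and Maff. They were chosen by gene symbol, through the RefSeq transcript that names each array feature, and all 10 were found, with 1 feature of 9 probes each, among 17298 named genes on the array. Their transcripts were measured in cultures of MC3T3-E1, an established line of osteoblast precursors from the skull vault of newborn mice, on single-colour expression arrays, with 1 array per culture. In the differentiated group, 3 cultures had been kept for 15 days in medium that held 50 µg/mL ascorbic acid together with 10 mM glycerol-2-phosphate, which lets these cells lay down a mineralizing matrix. In the undifferentiated group, 3 cultures had not. All 6 cultures were given 100 nM of the hormone 1,25(OH)2D3 for 24 h, so neither group is hormone-free, and vehicle-treated cells were not analysed here. No response to the hormone can therefore be read from these values. The series gives the cultures as biological triplicates of a single cell line, at passages within 1 range for all of them.

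AP-1 is not 1 protein but a set of dimers. Each subunit holds a basic region that grips DNA and a leucine zipper that pairs it with another subunit. Jun proteins can pair with each other, whereas Fos proteins need a Jun partner to bind the TPA response element (TRE, TGANTCA). Fos and FosB carry strong activation domains that the Fos-like proteins Fra-1 (from Fosl1) and Fra-2 (from Fosl2) lack, and Fos transcription is the classical example of a fast and short-lived response to serum and growth factors. In mice the family is known for its effects on bone, since forced expression of Fra-1 or of a short form of FosB thickens the skeleton and forced expression of Fos causes bone tumours.

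The start-site windows of 4 members, 2 that rose and 2 that fell in the tests reported further on, are shown to make the short-range sequence around these genes visible. Each runs from 250 bases before to 50 bases after the start given for the gene. All were taken from RefSeq with build GRCm38.p6 and are written 5′ to 3′ on the gene's own strand. For Fosb this start lies inside the annotated gene, whose outer end is at position 19310118. Capitals mark matches to the searched motifs, which in these 4 windows are TGACG, the core of the cAMP response element (CRE), the variant TGACATCA and the TATA box TATAAA.
Fos (chr12:85473640-85473939, plus strand): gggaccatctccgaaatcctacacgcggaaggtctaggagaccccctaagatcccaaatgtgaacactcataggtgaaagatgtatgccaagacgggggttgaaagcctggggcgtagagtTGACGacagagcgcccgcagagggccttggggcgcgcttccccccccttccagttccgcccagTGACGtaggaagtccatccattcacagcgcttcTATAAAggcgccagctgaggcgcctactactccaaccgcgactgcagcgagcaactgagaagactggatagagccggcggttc
Fosb (chr7:19309996-19310295, minus strand): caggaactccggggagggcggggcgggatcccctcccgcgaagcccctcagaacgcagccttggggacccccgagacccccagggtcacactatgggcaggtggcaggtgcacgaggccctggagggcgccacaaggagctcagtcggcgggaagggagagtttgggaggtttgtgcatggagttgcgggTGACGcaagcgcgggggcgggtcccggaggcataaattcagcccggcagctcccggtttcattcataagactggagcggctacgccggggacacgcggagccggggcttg
Fosl2 (chr5:32136222-32136521, plus strand): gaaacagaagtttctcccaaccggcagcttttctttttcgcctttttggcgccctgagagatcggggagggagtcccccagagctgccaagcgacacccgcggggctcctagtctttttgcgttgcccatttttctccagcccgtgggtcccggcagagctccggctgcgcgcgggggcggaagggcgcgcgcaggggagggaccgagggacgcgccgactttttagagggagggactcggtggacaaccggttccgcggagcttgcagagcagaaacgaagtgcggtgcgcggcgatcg
Jun (chr4:95052173-95052472, minus strand): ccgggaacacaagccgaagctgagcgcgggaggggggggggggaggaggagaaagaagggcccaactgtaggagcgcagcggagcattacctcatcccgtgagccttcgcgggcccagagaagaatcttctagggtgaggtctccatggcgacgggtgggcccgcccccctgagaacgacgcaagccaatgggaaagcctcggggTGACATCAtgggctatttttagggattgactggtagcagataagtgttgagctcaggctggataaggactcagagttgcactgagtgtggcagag

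Windows were held for 9 of the 10 members, with 3 alternative windows for Maff. Fosl1 had no entry in the table. On both strands of these windows the TRE, TGANTCA, was found in 0 of the 9 members, against 7.81% of all 32851 windows of the same length. The complete CRE, TGACGTCA, was found in 1 Maff window, 29 bases before the start, against 1.79% of all windows. TGACATCA, which differs from the CRE in its middle and was found in 3.62% of all windows, lay 45 bases before the start of Jun and of another Maff window. The CArG box, the site of serum response factor, was found in 0 members and in 1.63% of all windows. Sites more than 250 bases before a start lay outside the windows, so this search says nothing of them, for Fos or any other member. TATAAA lay 33 bases before the Fos start and directly at the annotated Junb start, and 13.6% of all windows held it. The 5-base core TGACG, which is also part of the complete CRE, was searched after the sequences had been looked at. It lay 129 and 66 bases before the Fos start, 60 before the start used for Fosb, 98 before Batf, 7 before Atf3 and 106 before Junb, and in 2 Maff windows. The Fosb match lies within the annotated gene, since the start used is not the gene's outer end. Likewise, the 2 Maff windows with matches lie inside the annotated Maff gene, whose outer end is at position 79346621. The Maff window at that outer end held no match to any searched motif. TGACG was found in 20.8% of all windows but not in those of Fosl2, Jun or Jund. These are matches of letters in a short window and show neither binding nor its absence.

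Facts of the arrays bear on everything below. Expression values are given on the log2 scale of the authors' RMA intensity, and a feature made of 6131 random probes read 6.59 to 6.81 on that scale. All 10 members lay above it on all 6 arrays. Because each gene has its own probes, a value of one gene is not set against the level of another. The third undifferentiated array was unlike the other 2 of its group: its Pearson correlation with them across features was 0.979 and 0.986, against 0.994 between those 2 and 0.992 to 0.996 among the differentiated arrays. The array number that opens its image name begins with the same digits as those of the 3 differentiated arrays, and the numbers of undifferentiated replicates 1 and 2 begin differently. Another string in the image name was the same within each group and differed between the groups, so whatever it records cannot be told apart from group. The upper quartile of log2 values was 11.262 on undifferentiated replicate 3 and 11.259 to 11.295 on the differentiated arrays. On undifferentiated replicates 1 and 2 it was 11.46 and 11.392, so the deposited values do not share the same distribution. The cells carried the transcripts of the osteoblast lineage: Runx2, its master regulator, read 11.91 to 12.17 in differentiated and 11.88 to 12.10 in undifferentiated cells, and Col1a1, a chain of type I collagen, read 15.93 to 15.95 and 15.76 to 15.92. Ibsp, the bone sialoprotein gene, stayed near the random probes, at 6.87 to 7.05 in differentiated and 6.53 to 7.19 in undifferentiated cells. Among markers of other cell types, Ctsk, the cathepsin K gene of osteoclasts that mesenchymal cells also transcribe, read 15.08 to 15.26 in differentiated and 13.70 to 14.06 in undifferentiated cells. With it, the summed intensity of 5 macrophage and osteoclast markers ranged from 35664 to 40414 in differentiated and from 14445 to 18158 in undifferentiated cells, and 1 of the 5 passed the test. The leukocyte marker Ptprc read 8.65 to 8.79 in differentiated and 8.54 to 8.80 in undifferentiated cells. Of 5 markers each, 2 chondrocyte, 2 endothelial, 1 adipocyte and 1 skeletal muscle marker rose and 1 chondrocyte marker fell, where 19.5% of all named genes passed in either direction. Their summed intensities ranged over 5543 to 6749, 2005 to 2192, 2426 to 3071 and 4377 to 4557 in differentiated cells, against 6719 to 7438, 1515 to 1701, 2439 to 2624 and 2944 to 4037 in undifferentiated cells. The endothelial cadherin gene Cdh5 was at or below the random probes on all arrays, and the part of other cell types in the results below was not tested.

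The comparison of differentiated with undifferentiated cells split the AP-1 genes. Fos, Fosb, Atf3 and Batf rose, Fosl1, Fosl2 and Jun fell, and Junb, Jund and Maff did not pass the test. The 7 changed members are to be read against a background in which 19.5% of all named genes passed, 8.58% upward and 10.9% downward (limma, adjusted p under 0.05 over 17298 genes). Tested over all 42586 features, 19.6% passed. The arrays of the groups did not overlap for the same 7 members, as they did not for 40.1% of all genes, 22.7% with differentiated cells higher and 17.4% with them lower. After quantile normalization 4 members passed, against 18.9% of all genes. The median log2 difference of the 10 members was -0.08, with a range of -1.71 to 0.92, and that of all named genes was 0.08. In these bulk cultures, fewer cells of a type and less RNA per cell cannot be told apart.

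**Figure D1:**
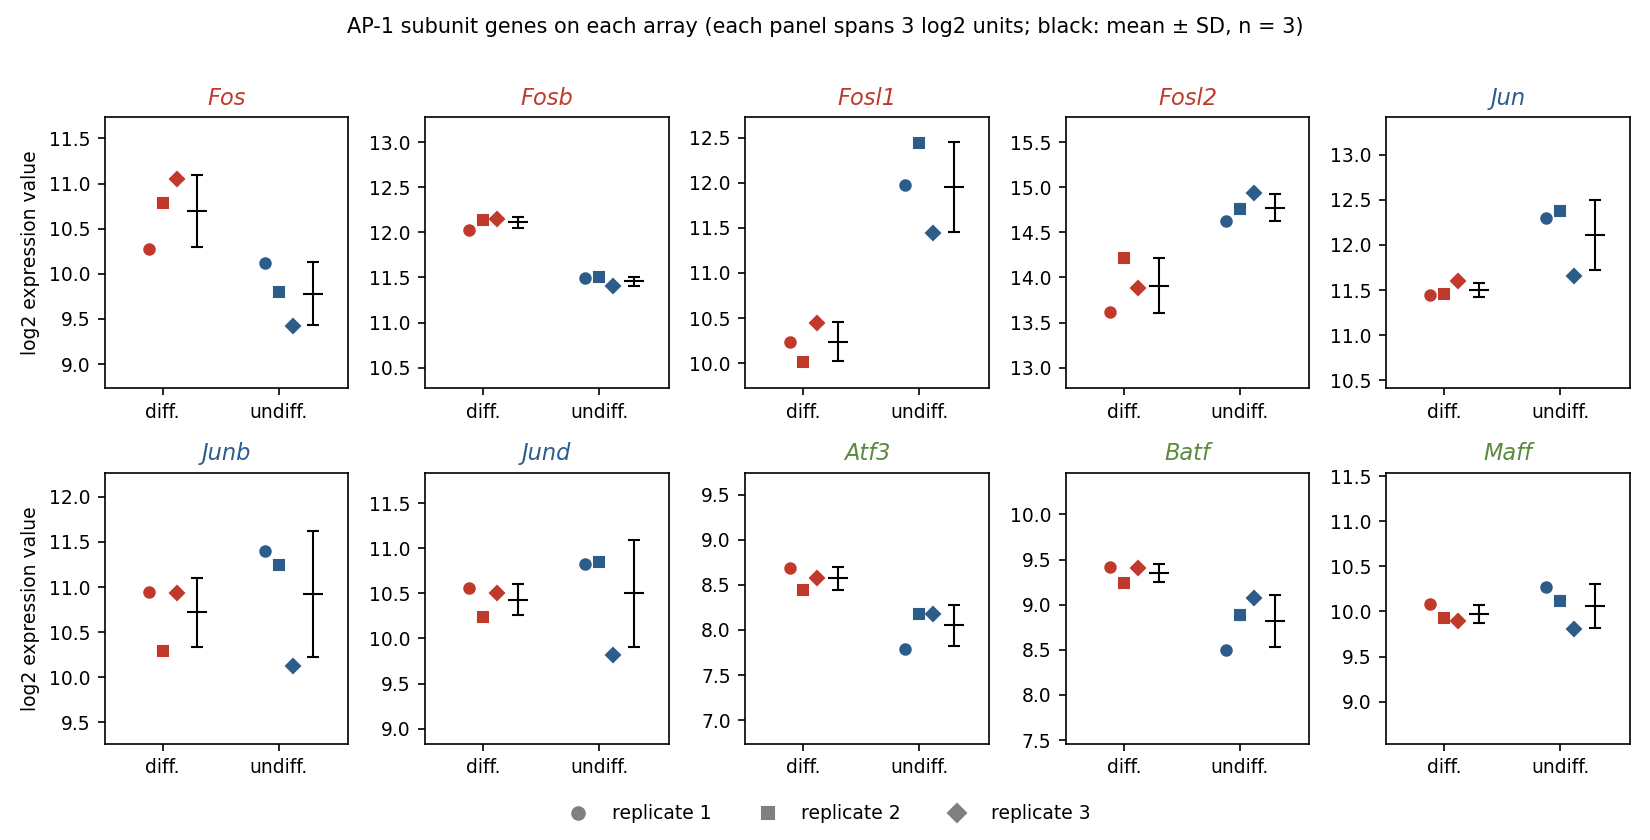
Log2 expression value (vertical axis, 3 log2 units in every panel) of the 10 AP-1 genes on each array, with differentiated cultures on the left in red and undifferentiated cultures on the right in blue. Symbols mark replicates 1 to 3 and the black bars the mean ± SD (n = 3). The groups lie apart for 7 genes, and undifferentiated replicate 3 (diamond) lies lowest of its group for Junb at 10.13 and Jund at 9.82.

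The Fos family moved in opposite directions. Its genes Fosl1 and Fosl2, which encode the members without a strong activation domain, fell, and its genes Fos and Fosb rose, so that all 4 passed. Whether the Fosb feature tells transcripts of full-length FosB from those of its short form was not tested. Fosl1 read 10.24, 10.01 and 10.45 in differentiated replicates 1 to 3 and 11.97, 12.44 and 11.44 in undifferentiated replicates 1 to 3. Every differentiated array lay about 1 log2 unit or more below every undifferentiated array. The group means were 10.24 ± 0.22 in differentiated and 11.95 ± 0.50 in undifferentiated cells (SD, n = 3 each), a log2 difference of -1.71 (SE 0.23, 95% interval -2.22 to -1.21, limma adjusted p = 0.000668). In size it exceeded the differences of 99.2% of named genes.

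Fosl2, the Fra-2 gene, read 13.62, 14.22 and 13.88 in differentiated replicates and 14.63, 14.76 and 14.93 in undifferentiated replicates. The groups did not overlap, although differentiated replicate 2 came within 0.5 of the lowest undifferentiated array. The means were 13.91 ± 0.30 in differentiated and 14.77 ± 0.15 in undifferentiated cells (SD, n = 3 each), a log2 difference of -0.86 (SE 0.17, limma adjusted p = 0.00597), or 1.82-fold lower in differentiated cells.

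Fos, the founding member and an immediate early gene, read 10.27, 10.79 and 11.05 in differentiated replicates and 10.12, 9.80 and 9.42 in undifferentiated replicates. The groups were narrowly apart, since differentiated replicate 1 lay just above undifferentiated replicate 1. The means were 10.70 ± 0.40 in differentiated and 9.78 ± 0.35 in undifferentiated cells (SD, n = 3 each), a log2 difference of 0.92 (SE 0.22, limma adjusted p = 0.017), or 1.89-fold higher in differentiated cells. The call ended without differentiated replicate 2 (0.88, limma adjusted p = 0.0624), differentiated replicate 3 (0.75, limma adjusted p = 0.0776) or undifferentiated replicate 2 (0.93, limma adjusted p = 0.0701).

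Fosb, whose product resembles Fos, had the smallest spread of the family. Its values were 12.03, 12.14 and 12.15 in differentiated replicates and 11.49, 11.50 and 11.40 in undifferentiated replicates. No array of either group came near the other group. The log2 difference was 0.64 (SE 0.12, 95% interval 0.38 to 0.91, limma adjusted p = 0.00505), or 1.56-fold higher in differentiated cells, and it ranged from 0.59 to 0.75 over the 20 alternative settings run.

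**Figure D2:**
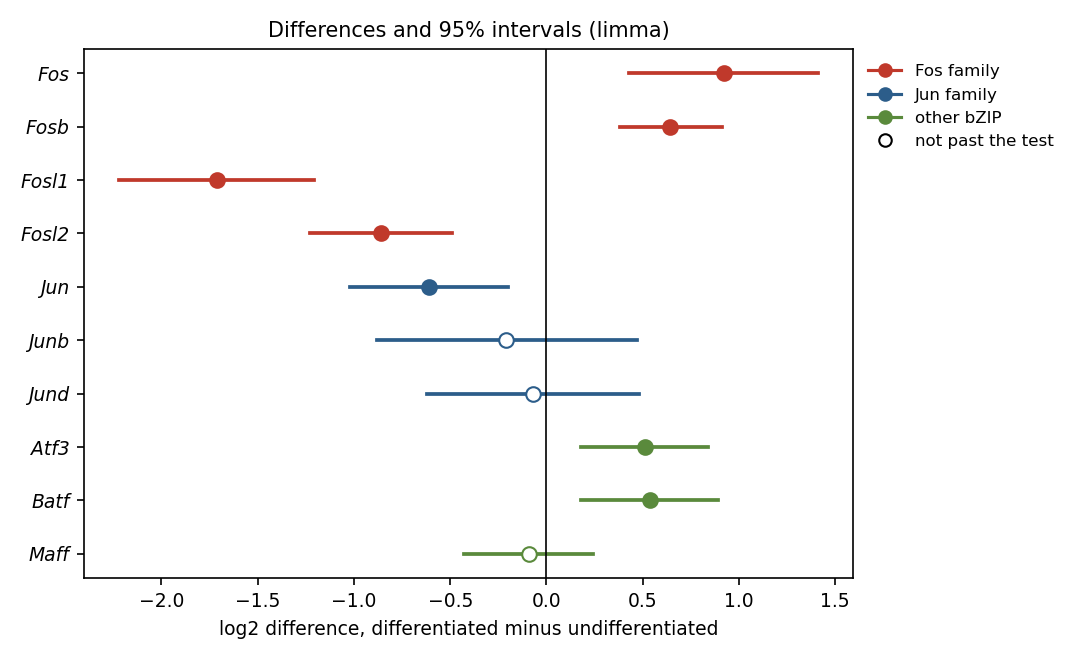
Log2 difference (horizontal axis, differentiated minus undifferentiated) of each AP-1 gene with its 95% interval from limma, coloured by family, with open symbols for genes that did not pass. Fosl1 stands farthest from 0 at -1.71, Fos lies at 0.92, and the intervals of Junb, Jund and Maff include 0.

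In the Jun family 1 of 3 genes passed. Jun, whose product is the most potent transcriptional activator among the Jun proteins, read 11.45, 11.46 and 11.60 in differentiated replicates and 12.30, 12.38 and 11.66 in undifferentiated replicates. Undifferentiated replicate 3 lay next to the differentiated arrays, far from the other 2 of its group. The log2 difference was -0.61 (SE 0.18, limma adjusted p = 0.0414), 1.53-fold lower in differentiated cells. Jun did not pass in 10 of the 20 alternative settings, which included quantile normalization (-0.51, limma adjusted p = 0.0505), cyclic loess (-0.51, limma adjusted p = 0.0598) and 5 of the 6 fits that left out an array. Against undifferentiated replicate 3 alone, the only array of its group with the same array number start, the difference was -0.16. Comparisons with that replicate alone have 1 undifferentiated array, so their spread comes from the differentiated arrays only. For the members they are given as values with no test shown, although the counts over the 20 alternative settings include that fit.

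Junb, which encodes a weaker activator that can restrain Jun, read 10.95, 10.29 and 10.93 in differentiated replicates and 11.40, 11.24 and 10.13 in undifferentiated replicates. The groups overlapped because undifferentiated replicate 3 held the lowest value of all 6 arrays, 1.20 log2 units under the mean of replicates 1 and 2. The log2 difference was -0.21 (SE 0.30, 95% interval -0.88 to 0.47, limma adjusted p = 0.652). It was -0.60 without undifferentiated replicate 3 (limma adjusted p = 0.0103) and 0.59 against that replicate alone.

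Jund, which encodes the Jun protein that many resting cells make throughout, followed the same pattern. It read 10.56, 10.24 and 10.50 in differentiated replicates and 10.83, 10.85 and 9.82 in undifferentiated replicates. All 3 differentiated arrays lay between undifferentiated replicate 3 and the other 2. The log2 difference was -0.07 (SE 0.25, 95% interval -0.62 to 0.48, limma adjusted p = 0.862). It was -0.41 without undifferentiated replicate 3 (limma adjusted p = 0.0217) and 0.61 against that replicate alone, so the sign of the difference turned with 1 array, and it was 0.01 after quantile normalization.

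Of the other bZIP members, Atf3 and Batf rose and Maff did not pass. Atf3, a stress-induced factor that pairs with Jun proteins, read 8.69, 8.44 and 8.57 in differentiated replicates and 7.79, 8.18 and 8.18 in undifferentiated replicates. The groups were apart by less than the spread within the undifferentiated group. The log2 difference was 0.51 (SE 0.15, limma adjusted p = 0.0359). Batf, which encodes a short AP-1 protein best known from lymphocytes, read 9.42, 9.24 and 9.41 in differentiated replicates and 8.50, 8.88 and 9.07 in undifferentiated replicates. Its groups were likewise close but did not overlap, with a log2 difference of 0.54 (SE 0.16, limma adjusted p = 0.0395). Both calls were lost in 10 of 20 alternative settings, among them quantile normalization, where the adjusted p of limma was 0.0563 for Atf3 (0.41) and 0.053 for Batf (0.44), and equal array medians, where it was 0.0514 for Atf3 (0.46) and 0.0553 for Batf (0.49). Both were also lost in the 5 fits that left out an array other than undifferentiated replicate 3. Maff, which encodes a small Maf protein without an activation domain, read 10.08, 9.93 and 9.89 in differentiated replicates and 10.27, 10.11 and 9.80 in undifferentiated replicates. Its groups overlapped, and the log2 difference was -0.09 (SE 0.15, limma adjusted p = 0.671).

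Undifferentiated replicate 3 thus bore on some members and not on others. Relative to the mean of replicates 1 and 2 it differed by -1.20 for Junb, -1.02 for Jund, -0.77 for Fosl1, -0.68 for Jun, -0.54 for Fos and -0.39 for Maff, and by -0.09 for Fosb, 0.20 for Atf3, 0.23 for Fosl2 and 0.38 for Batf. Without it 9 members passed, 4 higher and 5 lower in differentiated cells, while 45% of all named genes passed. With the start of the array number as a covariate, which leaves it as the only undifferentiated array compared and assumes that it varies as the others do, 5 members passed (Fos, Fosb and Jund higher, Fosl1 and Fosl2 lower), against 17.7% of all named genes. The directions of Fos, Fosb, Fosl1 and Fosl2 held in both fits, with -1.97 and -1.20 for Fosl1, -0.79 and -1.02 for Fosl2, 0.74 and 1.28 for Fos, and 0.61 and 0.70 for Fosb.

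**Figure D3:**
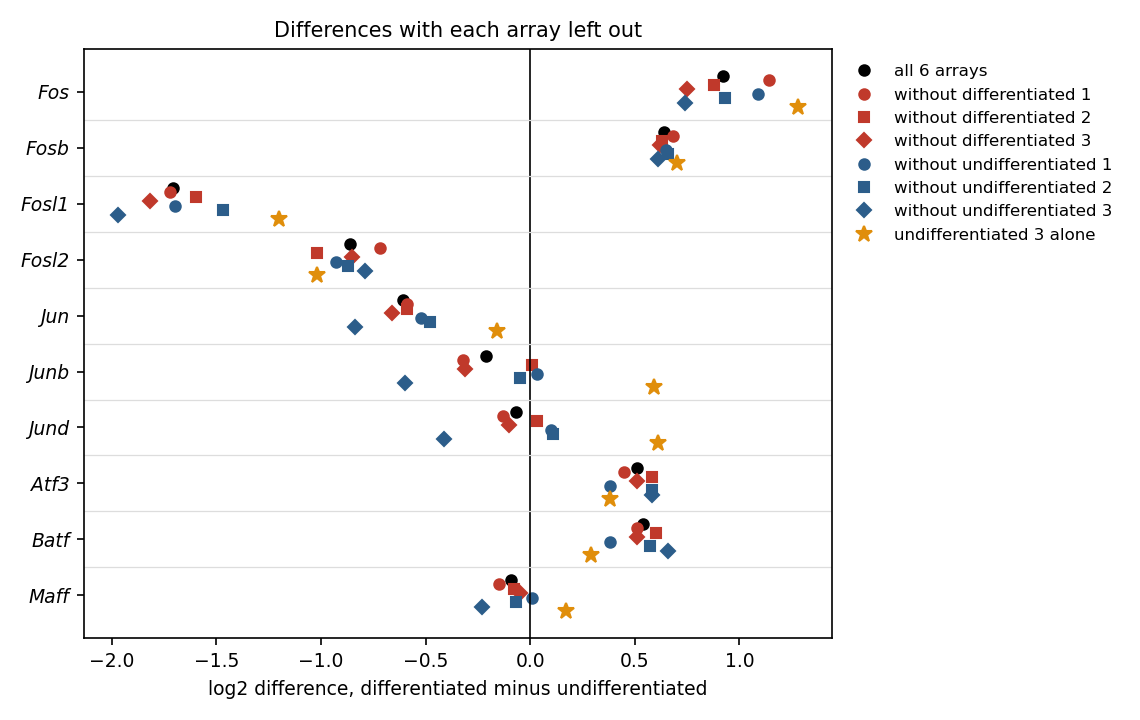
Log2 difference (horizontal axis, differentiated minus undifferentiated) of each AP-1 gene with all 6 arrays, with each array left out in turn, and against undifferentiated replicate 3 alone (star). Points of the 4 Fos family genes stay on 1 side of 0, as do those of Jun, Atf3 and Batf, whereas those of Junb, Jund and Maff lie on both sides.

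Subunits were then compared within each family through the difference of 2 log2 values on the same array, whose change between groups shows unequal change of the 2 genes. There were 12 such pairs, each tested by a 2-sided exact permutation test over arrays, in which 3 against 3 cannot give a p below 0.1. No pair could therefore pass, and the sizes are given with the spread. In 7 of the 12 pairs the groups did not overlap, each with an exact p of 0.1 (adjusted over the 12 pairs, 0.1714). For the 4 that set Fos or Fosb against Fosl1 or Fosl2, this had to follow from the single genes. In each of them 1 gene was higher and the other lower, both without overlap. Those 4 pairs are thus no further evidence, and no share over all gene pairs was computed. Fos minus Fosl1 was 0.02, 0.78 and 0.59 in differentiated replicates and -1.84, -2.64 and -2.02 in undifferentiated replicates. The balance of these 2 transcripts was thus higher toward Fos in differentiated cells on every array, by 2.63 log2 units or 6.2-fold. Fosb minus Fosl1 was higher by 2.36, with 1.87 ± 0.23 in differentiated and -0.48 ± 0.45 in undifferentiated cells (SD, n = 3 each). Fos minus Fosl2 was higher by 1.78 and Fosb minus Fosl2 by 1.51. The pairs of like direction overlapped: Fos minus Fosb differed by 0.28 (exact p = 0.4), and Fosl1 minus Fosl2 by -0.85 (exact p = 0.3). For Fosl1 minus Fosl2, undifferentiated replicate 3, at -3.49, lay within the differentiated range of -4.21 to -3.38.

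Within the Jun family, Jun minus Jund was 0.89, 1.22 and 1.10 in differentiated replicates and 1.46, 1.53 and 1.84 in undifferentiated replicates. The groups were apart, so Jun was lower relative to Jund in differentiated cells on the log2 scale, a change of -0.54, and the change was -0.77 when undifferentiated replicate 3 stood alone for its group. Jun minus Junb differed by -0.41 (exact p = 0.3) and Junb minus Jund by -0.14 (exact p = 0.5), both with overlapping groups. Although Junb and Jund each differed by over 1 log2 unit between undifferentiated replicate 3 and the other 2, their difference on the same array stayed within 0.05 to 0.43 in differentiated and 0.31 to 0.57 in undifferentiated cells. Among the other members, Atf3 minus Batf differed by -0.02 (exact p = 0.8), with -0.79 ± 0.05 in differentiated and -0.76 ± 0.10 in undifferentiated cells (SD, n = 3 each). Atf3 minus Maff and Batf minus Maff were higher by 0.61 and 0.63, with groups apart. Both were 0.37 without undifferentiated replicate 1, and 0.22 and 0.12 against undifferentiated replicate 3 alone.

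**Figure D4:**
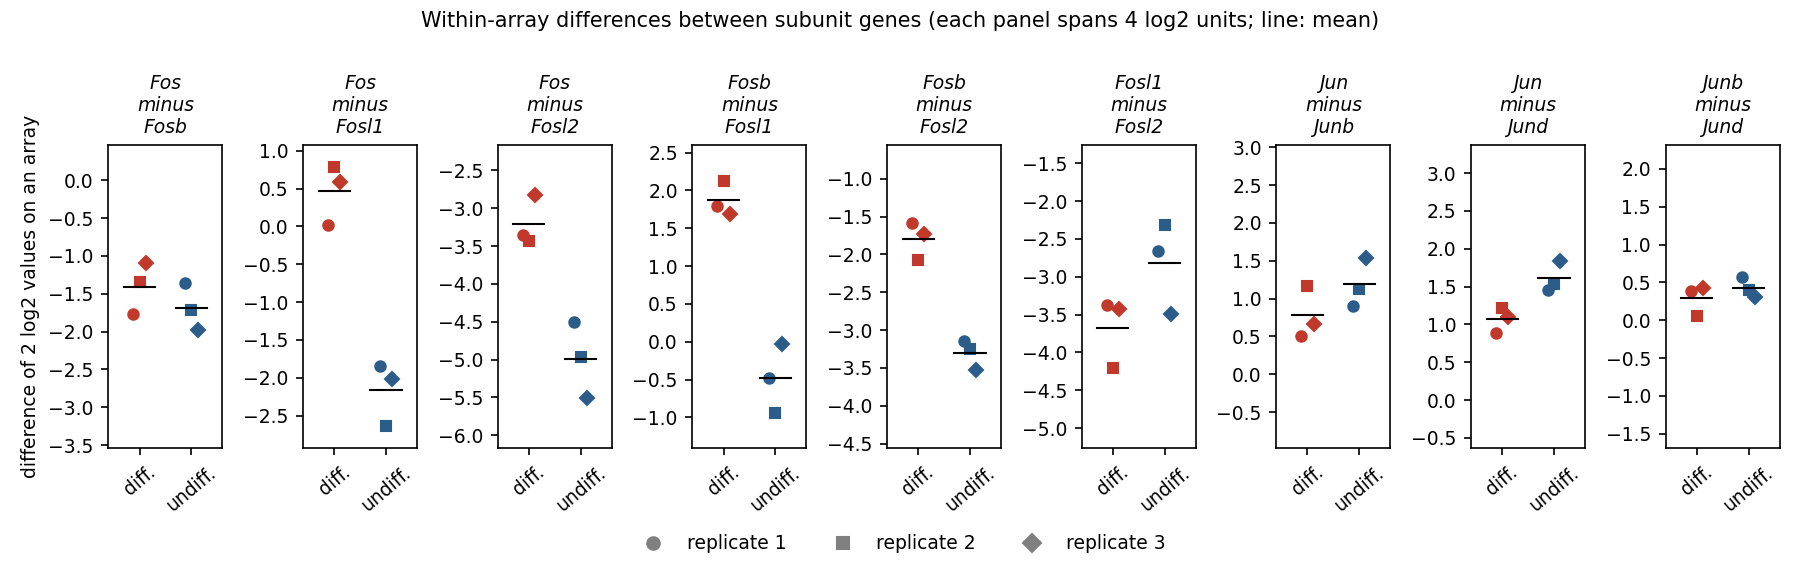
Difference of 2 log2 values on the same array (vertical axis, 4 log2 units in every panel) for the 6 pairs of Fos family genes and the 3 pairs of Jun family genes, with differentiated arrays on the left in red and undifferentiated arrays on the right in blue, and lines at the means. In the 4 panels that set Fos or Fosb against Fosl1 or Fosl2, the group means differ by 1.51 to 2.63. The groups lie apart in those 4 panels and in the panel of Jun and Jund. In those 4 panels this follows from the values of the single genes.

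Fos and Batf, which both rose, lie on the same stretch of chromosome 12 in the RefSeq table. Between them it lists 4 genes, of which Jdp2 alone is protein-coding and measured. Jdp2, which encodes a Jun-binding repressor of AP-1, read 10.87, 10.65 and 10.77 in differentiated replicates and 10.95, 10.61 and 10.08 in undifferentiated replicates. Its groups overlapped and its log2 difference was 0.21 (limma adjusted p = 0.456).

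Patterns over the 6 arrays most like those of Fosl1 and Jun, the members with the largest difference in their families, were looked for among genes above the random probes on all arrays with an SD of at least 0.5. Most like Fosl1 among 1108 genes were Plau, the urokinase gene, with a Pearson r of 0.994, Mtmr12 with 0.991, Mbnl3 with 0.990 and Cox5a with 0.987. Plau read 8.50, 8.49 and 8.60 in differentiated replicates and 9.68, 9.86 and 9.26 in undifferentiated replicates, lowest of its group in replicate 3 as Fosl1 was. Most like Jun among 1109 genes were S100a10 with an r of 0.999, S100a1 with 0.994, Rpl37 with 0.992 and Relt with 0.989. S100a10 read 11.87, 11.86 and 12.05 in differentiated replicates and 12.91, 12.97 and 12.16 in undifferentiated replicates, again with replicate 3 beside the differentiated arrays. With 6 arrays in 2 groups these coefficients describe likeness only and carry no test.

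The genes around AP-1 were taken from 5 lists, whose counts are set beside the share of all named genes that passed, 19.5% with all arrays and 45% without undifferentiated replicate 3. Of 24 immediate early genes, which like Fos respond to stimuli without new protein synthesis, 5 rose, 5 fell and 14 did not pass (41.7% passed, against 19.5% of all genes), with a median log2 difference of 0.08. Without undifferentiated replicate 3, 7 rose and 6 fell (54.2%, against 45%), and the genes lower numbered 3 without differentiated replicate 1, differentiated replicate 2 or undifferentiated replicate 2. With these arrays left out in turn, 29.2%, 33.3% and 29.2% of the list passed, shares that are not to be set against the 19.5% found with all arrays. Over all 17298 named genes, 1354, 2029 and 1495 passed there, against 3367 with all arrays. Those that rose were Nr4a1, an orphan nuclear receptor gene (2.27-fold), the zinc finger genes Egr1 (2.22-fold), Egr2 (1.73-fold) and Egr3 (1.72-fold), and the clock gene Per1 (1.53-fold, limma adjusted p = 0.0106; lost without differentiated replicate 1 or undifferentiated replicate 2, at up to 0.0589). Egr1, Nr4a1, Sgk1 and Trib1 were named by rule, and the others to complete the count. Egr1 read 12.34, 12.31 and 12.52 in differentiated replicates and 11.09, 11.25 and 11.38 in undifferentiated replicates, about 1 log2 unit apart throughout (log2 difference 1.15, SE 0.13, limma adjusted p = 0.000302). Nr4a1 read 11.21, 11.07 and 11.32 in differentiated replicates and 10.00, 10.08 and 9.97 in undifferentiated replicates (log2 difference 1.19, SE 0.13, limma adjusted p = 0.000168). Sgk1, a kinase gene, fell 2.22-fold (limma adjusted p = 0.00668), with a log2 difference of -0.65 that did not pass against undifferentiated replicate 3 alone (limma adjusted p = 0.074, spread from the differentiated arrays only). Trib1, a pseudokinase gene, fell 1.79-fold (limma adjusted p = 0.004). Klf6 also fell and passed in all 20 alternative settings, while Klf2 and Klf10 fell but passed in 11 and 15 of them. Myc differed by 0.23 (limma adjusted p = 0.294).

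Of 15 feedback inhibitors of MAP kinase signalling, 2 rose, 5 fell and 8 did not pass (46.7% passed, against 19.5% of all genes), with a median of -0.14. The genes lower numbered 1 without differentiated replicate 1 or undifferentiated replicate 2, 2 without differentiated replicate 2 or 3, and 3 without undifferentiated replicate 1. In those fits 20% to 33.3% of the list passed, shares that are not to be set against the 19.5% found with all arrays. The calls over all 17298 named genes fell there too, from 3367 to 1354 without differentiated replicate 1 and 1495 without undifferentiated replicate 2. They numbered 2029 without differentiated replicate 2, 1646 without differentiated replicate 3 and 2381 without undifferentiated replicate 1. Without undifferentiated replicate 3 the genes lower numbered 7, and 66.7% of the list passed, against 45% of all genes. Spry1 and Spry4, which encode Sprouty inhibitors of receptor tyrosine kinase signalling, rose 2.24-fold and 1.97-fold (limma adjusted p = 0.000591 and 0.000913). Spry1 read 10.72, 10.68 and 10.64 in differentiated replicates and 9.71, 9.62 and 9.21 in undifferentiated replicates. The phosphatase genes Dusp10 and Dusp16, whose products act on stress-activated kinases, fell 1.90-fold (limma adjusted p = 0.00184) and 1.66-fold (limma adjusted p = 0.0136; up to 0.075 with an array left out). Dusp4, Dusp6 and Spred1 also fell (limma adjusted p = 0.0351, 0.0334 and 0.0442), but passed in 15, 11 and 13 of 20 alternative settings. Dusp1 differed by -0.14 (limma adjusted p = 0.57).

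Of 22 kinases and factors that feed AP-1 transcription, 0 rose, 5 fell and 17 did not pass in limma, and the median was -0.07. The share that passed, 22.7%, was near the 19.5% of all genes. Without undifferentiated replicate 3, 2 rose and 8 fell, a share of 45.5%, near the 45% of all genes. Elk3, which encodes an ETS partner of serum response factor, fell 2.58-fold (limma adjusted p = 0.00746), with a log2 difference of -1.10 that did not pass against undifferentiated replicate 3 alone (limma adjusted p = 0.0612, spread from the differentiated arrays only). Its differentiated arrays spread over 8.47 to 9.74, against 10.20 to 10.80 in undifferentiated cells. Rps6ka3, a ribosomal S6 kinase gene, fell 1.92-fold (limma adjusted p = 0.00109). Mapk8, which encodes the Jun N-terminal kinase JNK1, and Map2k4, which encodes a kinase that activates it, fell 1.74-fold and 1.67-fold (limma adjusted p = 0.00349 and 0.0046). Mapk8 read 10.01, 9.88 and 10.00 in differentiated replicates and 10.96, 10.76 and 10.55 in undifferentiated replicates, with no overlap. Srf itself differed by -0.57 without passing (limma adjusted p = 0.0694), with undifferentiated replicate 3 at 10.81 and the other 2 at 11.59 and 11.53, and it passed without that replicate (-0.82).

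Among 16 measured bZIP dimer partners outside the members, 0 rose, 3 fell and 13 did not pass in limma, with a median of 0.17. The share that passed, 18.8%, was near the 19.5% of all genes. Without undifferentiated replicate 3, 3 rose and 5 fell, a share of 50%, against 45% of all genes. Bach1, which encodes a repressor that pairs with small Maf proteins such as MafF, fell 2.01-fold (limma adjusted p = 0.00138), with 10.17, 10.49 and 10.43 in differentiated replicates and 11.34, 11.19 and 11.59 in undifferentiated replicates. Nfe2l3, another small Maf partner gene, fell 1.62-fold (limma adjusted p = 0.00501). Creb5 was at or below the random probes on all differentiated arrays and was at least 1.53-fold lower there (limma adjusted p = 0.00755). Against undifferentiated replicate 3 alone its log2 difference of -0.54 did not pass (limma adjusted p = 0.0632, spread from the differentiated arrays only). The bound sets the undifferentiated mean against the random probes.

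Genes that AP-1 is known to act on differed in both directions. Of 18, 3 rose, 2 fell and 13 did not pass, with a median of 0.16, so that 27.8% passed, against 19.5% of all genes. Without undifferentiated replicate 3, 6 rose and 2 fell, a share of 44.4%, near the 45% of all genes. Mmp13, the collagenase gene with a well-known AP-1 site in its promoter, read 14.38, 14.61 and 14.45 in differentiated replicates and 12.23, 12.31 and 12.68 in undifferentiated replicates. Its groups were far apart, and its log2 difference was 2.07 (SE 0.15, limma adjusted p = 1.04e-05). The cytokine gene Il6, which was not above the random probes on 1 of 3 undifferentiated arrays, rose 1.75-fold by the measured means (limma adjusted p = 0.00334). Plaur, the urokinase receptor gene, rose 1.47-fold (limma adjusted p = 0.0191), but the call was lost in 6 of 20 alternative settings, with an adjusted p of up to 0.0937. Its ligand gene Plau fell 2.10-fold (limma adjusted p = 0.00145), and Cd44, the hyaluronan receptor gene, fell 1.67-fold (limma adjusted p = 0.00744). Ccnd1, the cyclin D1 gene, differed by 0.04 (limma adjusted p = 0.878). Of 10 bone genes, 3 rose and 7 did not pass (30% passed, all upward, against 19.5% of all genes in either direction and 8.58% upward). Without undifferentiated replicate 3, 3 rose and 0 fell, a share of 30%, against 45% of all genes. Among those that did not pass, Col1a1, Col1a2, Mgp and Sparc read 15.46 to 15.95 over all arrays. They were among the brightest named genes, at percentiles of 99.9 to 100. Whether the top of the intensity scale hid differences of these genes was not tested, so not passing does not show that they were unchanged. Alpl, the alkaline phosphatase gene and a standard marker of osteoblast maturation, read 12.97, 12.87 and 12.98 in differentiated replicates and 9.38, 9.09 and 9.26 in undifferentiated replicates (log2 difference 3.70, limma adjusted p = 6.79e-08). Sp7, which encodes the bone factor osterix, rose 1.62-fold (limma adjusted p = 0.0163; up to 0.0693 with an array left out). Bglap, the osteocalcin gene, averaged 10.50 ± 0.09 in differentiated and 9.41 ± 0.42 in undifferentiated cells (SD, n = 3 each; log2 difference 1.10, limma adjusted p = 0.00338), and it has near-identical neighbours whose transcripts its probes may also bind.

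**Figure D5:**
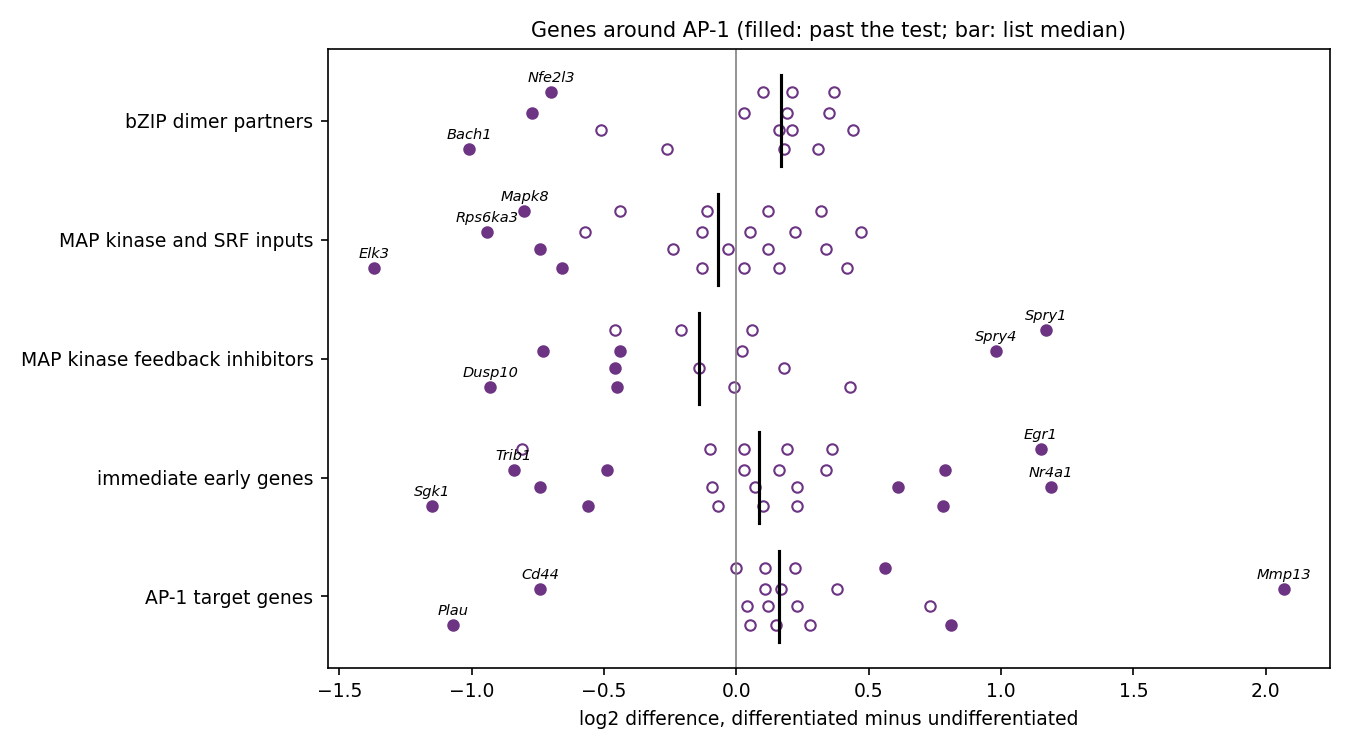
Log2 difference (horizontal axis, differentiated minus undifferentiated) of each measured gene in the 5 lists around AP-1, with filled symbols for genes that passed and black bars at the list medians. Mmp13 lies farthest right at 2.07 and Elk3 farthest left at -1.37, and every list median lies between -0.14 and 0.17.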

How the data were processed

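The authors deposited linear expression intensity per feature, made with RMA per the submitters' processing notes (version, build and arrays run together not given in the sources used here). Log2 of these intensity values was used for 3 differentiated and 3 undifferentiated arrays, grouped by sample title. The control feature was left out of all tests. RefSeq transcripts without versions were matched to a table of assembly GRCm38.p6, used for names: 17849 of 42586 features had 1 symbol and 24737 none, which gave 17298 genes. The brightest feature stood for each of 467 genes with several. Groups were compared with limma 3.58.1 in R 4.3.3 (lmFit, eBayes, 2-sided, Benjamini-Hochberg over all named genes), after the code was tested on simulated data. A series table held identical intensity values (largest difference 0.0). Precision is limited by 3 arrays per group.

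The members and lists were chosen with earlier results of these data known. Atf7, Bach2, Dusp5 and Cd68 were listed but not matched. The values of 1 listed gene are not reported here. Named genes are all members, up to 4 changed genes per list with the largest difference, 8 fixed genes, and the 4 genes most like the Fos and Jun family members that differed most. Alternatives covered normalization, dim-gene filters, a replicate block, array number start, array weights (gene-by-gene method, chosen after the default did not converge), moderation, feature summary, an offset of 50 and each array left out.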

Additional observations from a re-analysis of the deposited data

How the results depend on the processing

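The count of changed AP-1 members, 7 with all arrays, fell to 4 under cyclic loess and to 4 under quantile normalization, where 3029 and 3271 of all named genes passed. With single arrays left out the count ranged from 3 to 9. The count was 3 without differentiated replicate 2, differentiated replicate 3 or undifferentiated replicate 2, where 2029, 1646 and 1495 of all named genes passed. The count was 9 without undifferentiated replicate 3, where 7781 of them passed. It was 7 with the replicate block, which gave 3452 changed genes in all. Whether replicate numbers pair the samples was not settled. The deviations of same-numbered arrays from their group means correlated at 0.0102, 0.2115 and 0.0585, and those of other-numbered arrays at -0.167 to 0.0846. With 3 arrays per group these values cannot decide it, since the deviations within a group sum to 0. All named genes changed numbered 3367, 8432 with array weights, and 1354 to 7781 with single arrays left out. Companion genes changed numbered 33, 57 with array weights, and 24 to 52 with single arrays left out. Pairs with groups apart numbered 7 to 9 with single arrays left out, and 10 of 12 within a single array number start, which keeps 1 undifferentiated array. Fosb, Fosl1 and Fosl2 passed in all 20 alternatives run and Fos in 17, whereas Jun, Atf3 and Batf passed in 10 each. These tallies do not count independent checks. The 20 include the series table, whose values are identical, and the mean of all features, which leaves the values of these 1-feature genes unchanged. They also include the comparison within a single array number start, which keeps 1 undifferentiated array. Signs turned when the start of the array number was a covariate, or within it, for Junb (0.59), Jund (0.61) and Maff (0.17), for Jund after quantile normalization (0.01), and within it for Atf3 minus Batf (0.09). With single arrays left out the differences ranged from -0.60 to 0.03 for Junb, -0.41 to 0.11 for Jund, -0.23 to 0.01 for Maff and -0.08 to 0.01 for Atf3 minus Batf. The cause of these shifts was not tested, other than that fewer arrays enter when an array is left out.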
